A study of Mus musculus with 336 samples.

Results

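The genes described here are 10 acute phase genes, Saa1, Saa2, Saa3, Orm1, Orm2, Hp, Lcn2, Socs3, Stat3 and Il1rn, taken by name from the 47631 genes of the shortest of 3 expression tables. All 10 were found in each table, over 120 libraries. Each table sets Bmal1-/- (KO) against wild-type (WT) mice or cells of the C57BL/6 background, and Bmal1, listed as Arntl, encodes a transcription factor at the centre of the circadian oscillator. The first table covers confluent mouse skin fibroblasts (MSF), the second slices of adult ex-vivo liver kept in culture, and the third a shorter liver course. All groups, WT included, are listed as treated with 100 nM dexamethasone, a glucocorticoid that sets cellular clocks to a common phase, for 15 min. MSF and slices were then harvested from 48 h later, every 3 h over 3 days from CT00 to CT69. Both long courses list 72 sequencing runs for each genotype and 1 value per gene at each of 24 time points. The short course had 3 replicates per genotype at T00, T06, T12 and T24, each sequenced in 2 runs, and its time from treatment to T00 is not given in the labels. For KO replicate 3 at T00, 1 of the 2 runs carries a time characteristic of T06 against its own title, and the library was used as T00. The labels name no Cre or promoter for the deletion and do not say from how many mice or lines the MSF and slices came. Whether the libraries of a group came from different animals or dishes is not stated there either, and the p-values given below cover only the variation among these libraries, part of which may be technical.

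The acute phase response is the change in plasma proteins that the liver makes after injury or infection. In hepatocytes, interleukin 6 acts through its receptor and gp130 to activate STAT3, and interleukin 1 acts through NF-kB and C/EBP factors, with glucocorticoids adding to the induction of several targets. The targets include serum amyloid A (Saa1, Saa2 and, also outside the liver, Saa3), the orosomucoids (Orm1, Orm2) that bind small molecules in plasma, haptoglobin (Hp), which captures free haemoglobin, and lipocalin 2 (Lcn2), which binds bacterial siderophores. SOCS3 is the feedback inhibitor of the gp130 and STAT3 pathway and is itself a STAT3 target, and Il1rn encodes the interleukin 1 receptor antagonist.

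The bases just before the transcription starts are shown for the members whose results the text turns on and whose promoter holds a match to a binding motif of this pathway. The 250 bases before each start were taken from RefSeq (GRCm38.p6), and bases that an annotated exon covers are left out. Promoters of 8 members were matched by symbol, and Orm1 and Hp were not. Capitals mark the match, which is the C/EBP motif TTGCNNAA for the Saa genes and Orm2 and the STAT motif TTCNNNGAA for Socs3, sought on both strands.
Saa1: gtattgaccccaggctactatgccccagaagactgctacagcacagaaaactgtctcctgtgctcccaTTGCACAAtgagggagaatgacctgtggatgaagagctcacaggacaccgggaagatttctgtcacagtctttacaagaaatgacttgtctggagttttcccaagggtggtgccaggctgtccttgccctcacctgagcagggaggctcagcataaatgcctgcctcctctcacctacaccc
Saa2: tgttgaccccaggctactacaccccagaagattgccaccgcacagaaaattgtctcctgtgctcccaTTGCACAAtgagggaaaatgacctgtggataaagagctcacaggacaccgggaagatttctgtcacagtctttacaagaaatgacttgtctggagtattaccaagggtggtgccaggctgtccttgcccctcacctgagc
Saa3: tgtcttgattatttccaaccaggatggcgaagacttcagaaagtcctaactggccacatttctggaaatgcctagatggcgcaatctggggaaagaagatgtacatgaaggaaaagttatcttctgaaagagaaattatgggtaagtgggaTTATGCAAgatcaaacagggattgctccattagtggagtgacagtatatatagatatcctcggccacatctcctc
Orm2: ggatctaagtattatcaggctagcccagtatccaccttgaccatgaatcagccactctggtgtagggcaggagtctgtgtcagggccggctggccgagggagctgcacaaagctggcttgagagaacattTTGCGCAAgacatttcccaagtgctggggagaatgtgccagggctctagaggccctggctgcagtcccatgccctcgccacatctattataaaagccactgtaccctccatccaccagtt
Socs3: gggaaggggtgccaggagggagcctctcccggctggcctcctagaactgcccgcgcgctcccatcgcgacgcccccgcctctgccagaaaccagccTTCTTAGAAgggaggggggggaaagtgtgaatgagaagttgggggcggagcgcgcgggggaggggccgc
These lie at chr7:46742981-46743230, minus strand, for Saa1, chr7:46751583-46751789, plus strand, for Saa2, chr7:46715701-46715926, minus strand, for Saa3, chr4:63362199-63362448, plus strand, for Orm2, and chr11:117969452-117969616, minus strand, for Socs3. The match begins 182, 183, 99 and 120 bases before the start in Saa1, Saa2, Saa3 and Orm2, and 154 bases before it in Socs3. In the GENCODE annotation Socs3 spans chr11:117966079-117970047, so its stretch and STAT match lie inside that gene, after its outermost start. They are upstream only of the RefSeq start used here, and the stretch ends 86 bases before that start. A C/EBP match 216 bases before one Lcn2 start lies in bases that an annotated Lcn2 transcript holds as exon and is not shown. Of 10 member promoters, counting several starts of a gene, 5 held the C/EBP motif, 1 the STAT motif and 0 the NF-kB motif, against 9.56%, 7.02% and 7.25% of all 32851 promoters. A match is a description of the letters and not a bound site. The Saa1 and Saa2 promoters were identical at 238 of 250 aligned bases (95.2%). Saa1 and Saa3 shared 61.6%, no more than Saa1 and the unrelated Lcn2 with 64.8%. The transcripts are alike too, compared over stretches of 50 bases, the read length listed for MSF and slices. The labels of the short course list no read length. Of these stretches, 74 were shared by Saa1 and Saa2 (13.2% of those of Saa1 and 11.2% of those of Saa2), and 148 by Orm1 and Orm2 (20.4% of each). How reads were divided within these pairs is uncertain, so the 2 members of a pair are not separate evidence.

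Values are FPKM (fragment counts divided by transcript length and library size), which the authors computed for each gene. Differences between groups are on the scale of log2(FPKM + 1), which understates the change of low genes. They were tested with limma over every gene that averaged 1 FPKM or more, with Benjamini-Hochberg adjusted p-values. In MSF and slices, calling KO against WT or day 3 against day 1 took an adjusted p below 0.05 together with a log2 size of 1 or more. All other tests took the adjusted p alone, among them the rhythms and the genotype differences in rhythm and day change. Depth is unknown because the files hold no counts. Arntl, the targeted gene, did not check the labels: its gene-level FPKM ran from 5.67 to 7.84 (median 6.84) in KO and 8.79 to 11.9 (median 10.6) in WT MSF, and from 2.57 to 5.82 in KO and 3.08 to 7.61 in WT slices. At T00 of the short course it was higher in KO, at 2.73, 2.71 and 3.31 FPKM against 0.384, 0.126 and 0.392 FPKM in WT. Whether the deleted part of the gene is among the counted bases is unknown here. The summed FPKM of a library differed by up to 1.08 times among MSF, 2.77 times among slices and 2.11 times in the short course. Alb was listed at 0 in 1 KO and 5 WT libraries of the short course and in 1 WT slice library, so a value of 0 may be a failed estimate.

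In fibroblasts Saa1, Saa2, Orm1 and Orm2 were near 0, while Saa3, Stat3 and Socs3 were expressed in both genotypes. In all 48 MSF libraries the highest Saa1 was 0.905 FPKM, the highest Saa2 0.955, the highest Orm1 0.0943 and the highest Orm2 0.197, and the 4 genes were listed at 0 in 22, 16, 45 and 29 of these libraries. The 8 hepatocyte markers, among them Alb, Apoa1 and Apob, summed to 0.00223 to 0.743 FPKM (median 0.0608) in KO and 0.00526 to 0.293 FPKM (median 0.0944) in WT MSF, and none of them reached 1 FPKM in any library. Fibroblast markers were abundant, and summed to 4934 to 24177 FPKM (median 19966) in KO and 2195 to 16290.1 FPKM (median 15178) in WT MSF. In order of median level the members ran Stat3, Saa3, Hp, Socs3, Lcn2 and Il1rn in KO MSF, from 178 to 0.465 FPKM. In WT MSF the order was Saa3, Stat3, Il1rn, Socs3, Lcn2 and Hp, from 109 to 2.92 FPKM. Neighbours whose ranges over time did not overlap were Stat3 and Saa3, Saa3 and Hp, and Socs3 and Lcn2 in KO MSF, and Stat3 and Il1rn in WT MSF.
In liver slices all 10 members had a mean of at least 1 FPKM. Hp, Lcn2 and Orm1 had the highest medians in KO slices, at 899.7, 602 and 265 FPKM, and Lcn2, Hp and Saa3 in WT slices, at 1541, 1120.2 and 394 FPKM. Il1rn had the lowest median in both, at 3.05 and 5.89 FPKM. Saa1 reached 292 FPKM in KO and 557 FPKM in WT slices. Stat3 had medians of 178 FPKM in KO and 108 FPKM in WT MSF, against 22.1 and 28.8 FPKM in KO and WT slices. The 3 tables were normalised separately, so levels set side by side between them carry no test.

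**Figure D1:**
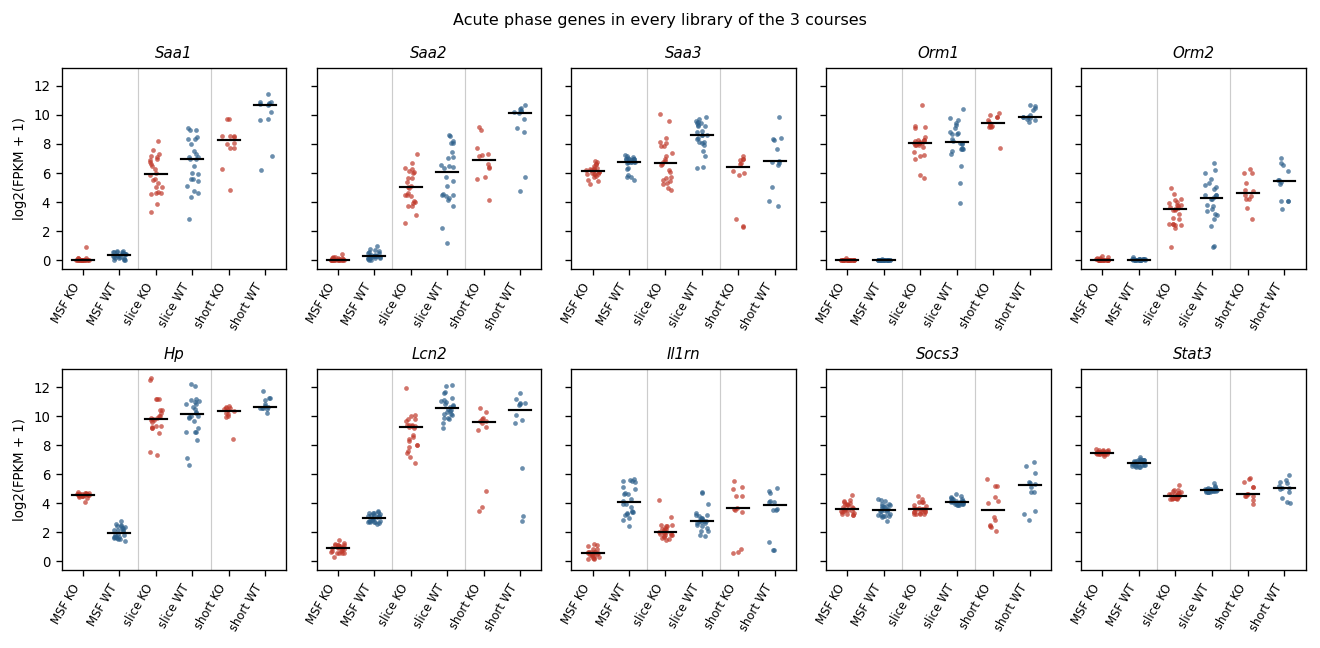
Level of each acute phase gene in every library of MSF, liver slices and the short liver course, as log2(FPKM + 1), with KO libraries left of WT libraries and the median of each group as a bar. Saa1, Saa2, Orm1 and Orm2 lie below 1 FPKM in all MSF libraries, while Saa3 lies between 36.9 and 147 FPKM there.

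The MSF course compared KO with WT cells over the 24 time points. Hp was higher in KO cells, and Lcn2 and Il1rn were lower, each with no overlap between the genotypes, as was the case for 35.6% of all genes. Hp, the haemoglobin scavenger, ran from 15.6 to 26.8 FPKM with a median of 23 in KO and from 1.59 to 5.7 FPKM with a median of 2.92 in WT cells, a difference of 2.56 ± 0.05 (SE, adjusted p = 4.8e-39). Lcn2 ran from 0.238 to 1.76 FPKM with a median of 0.874 in KO and from 4.99 to 9.91 FPKM with a median of 7.07 in WT cells, a difference of -2.11 ± 0.07 (adjusted p = 2.87e-30). Il1rn, whose product blocks the interleukin 1 receptor, showed the widest gap, with 0.0978 to 1.31 (median 0.465) FPKM in KO and 4.3 to 50.9 (median 15.8) FPKM in WT cells and a difference of -3.61 ± 0.06 (adjusted p = 3.24e-40). With these, 3 of the 6 members tested were called, where 16% of all 15065 genes were called. The share of members is on a base of 6 genes, and Saa1, Saa2, Orm1 and Orm2 were not tested because of their low level.
Stat3 and Saa3 differed by less than the size required. Both passed the p, as did 81.2% of all genes. Stat3, the transcription factor of the pathway, had 153 to 212 (median 178) FPKM in KO and 89.3 to 144 (median 108) FPKM in WT cells, higher in KO at all 24 time points with a difference of 0.70 ± 0.03 (adjusted p = 2.77e-24). Saa3 had 36.9 to 113 (median 69.4) FPKM in KO and 44 to 147 (median 109) FPKM in WT cells, with KO above WT at 0 of 24 times and a difference of -0.54 ± 0.07 (adjusted p = 1.78e-09). Socs3, the feedback inhibitor, had medians of 11.4 FPKM in KO and 10.7 FPKM in WT cells and did not pass the test (0.13 ± 0.10, adjusted p = 0.204). The 3 calls held without any 1 time point. Macrophage markers summed to at most 2.77 FPKM in KO and 2.35 FPKM in WT MSF, and C1qa, C1qb, C1qc and Marco were at 0 in every library.

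**Figure D2:**
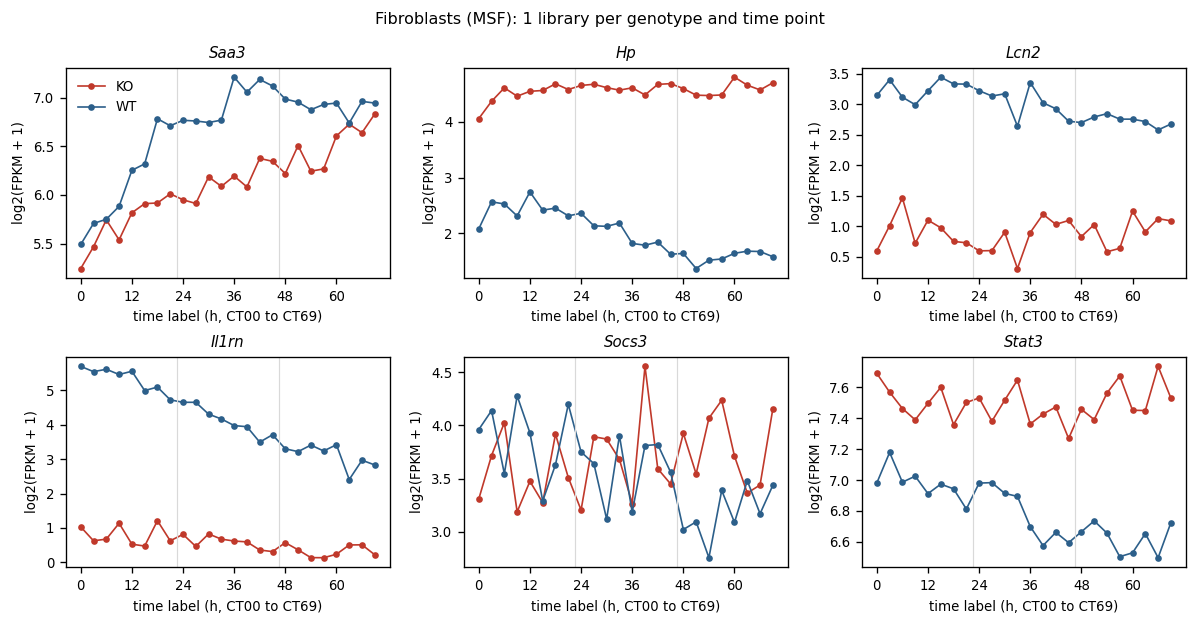
Level as log2(FPKM + 1) of the 6 acute phase genes above 1 FPKM in MSF against time from CT00 to CT69 in h, 1 point per library, KO and WT as separate lines. Hp in KO cells stays above 15.6 FPKM and in WT cells at or below 5.7 FPKM, and Il1rn in WT cells falls to 4.3 FPKM on its lowest time point.

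Over the 3 days of the MSF course Il1rn fell in WT cells, and no member had a called rhythm in either genotype. In KO cells none was called between day 3 and day 1, where 0.333% of 14713 genes were called. Saa3 passed the p alone in KO cells, with 73.6 to 113 (median 93.2) FPKM on day 3 and 36.9 to 63.5 (median 54) on day 1 (0.80 ± 0.09, adjusted p = 2.73e-07), higher at 8 of 8 matched times. In WT cells Il1rn had 4.3 to 9.7 (median 8.37) FPKM on day 3 and 25.4 to 50.9 (median 44.3) on day 1 (-2.24 ± 0.12, adjusted p = 6.51e-11), lower at all 8 matched times. It was the 1 member called of 6 tested, against 0.491% of 14658 genes. Saa3 in WT cells differed by 0.81 ± 0.12 (adjusted p = 2.34e-05), higher at 8 of 8 matched times, while Hp (-0.84 ± 0.10), Socs3 (-0.69 ± 0.15), Lcn2 (-0.52 ± 0.09) and Stat3 (-0.36 ± 0.05) were lower on day 3, all with sizes under 1. Between these days 25.1% of all genes in KO and 30.3% in WT MSF passed the p alone. Lcn2 and Il1rn in KO cells stayed under a mean of 1 FPKM and were not tested there. A 24 h rhythm was called for 0 of the 4 members tested in KO and 0 of 6 in WT MSF, where 0% and 0.0341% of all genes were called. At an unadjusted p below 0.05 were 873 genes in KO and 1060 in WT MSF, and the largest member amplitude was that of Socs3, 0.13 ± 0.10 in KO and 0.16 ± 0.09 in WT cells.

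In cultured liver slices 2 members were called lower in KO, Saa3 and Lcn2. Saa3 ran from 27.2 to 1069 FPKM with a median of 104 in KO and from 82.2 to 915 FPKM with a median of 394 in WT slices, a difference of -1.76 ± 0.23 (SE, adjusted p = 1.06e-08), with KO above WT at 2 of 24 times. Lcn2 ran from 108 to 3902 FPKM with a median of 602 in KO and from 578 to 4531 FPKM with a median of 1541 in WT slices, a difference of -1.73 ± 0.21 (adjusted p = 2.14e-09), with KO above WT at 1 of 24 times. The ranges overlapped for both. Of all 14566 genes 5.23% were called, 4.05% lower and 1.18% higher in KO, and the median gene differed by -0.34, so differences are read against that shift. After rescaling the libraries to a common median, the differences of Saa3 and Lcn2 were -1.36 and -1.33 and both stayed called.
For the other serum amyloid and orosomucoid genes and Hp the difference was smaller than the size required. Saa1 had 9.09 to 292 (median 59.3) FPKM in KO and 6.28 to 557 (median 123) FPKM in WT slices (-0.78 ± 0.22, adjusted p = 0.00199). Saa2 had 4.99 to 159 (median 31.3) FPKM in KO and 1.27 to 391 (median 66.4) FPKM in WT slices (-0.78 ± 0.23), and Orm2 had 0.878 to 30.4 (median 10.3) FPKM in KO and 0.903 to 105 (median 18.6) FPKM in WT slices (-0.83 ± 0.28). All 3 passed the p and not the size, and after rescaling none passed the p (Saa1 -0.38, Saa2 -0.40 and Orm2 -0.47, adjusted p = 0.155, 0.149 and 0.166). Orm1 and Hp did not pass the p either. Orm1 had 48.8 to 1626 (median 265) FPKM in KO and 14.1 to 1328 (median 283) FPKM in WT slices (-0.11 ± 0.27, adjusted p = 0.728, and 0.29 after rescaling). Hp had 159 to 6339.5 (median 899.7) FPKM in KO and 97.8 to 4709 (median 1120.2) FPKM in WT slices (-0.04 ± 0.31, adjusted p = 0.916, and 0.36 after rescaling). The p-values that miss the threshold do not show that the genotypes had the same level.
Among the regulators, Il1rn had 1.76 to 17.6 (median 3.05) FPKM in KO and 2.43 to 25.8 (median 5.89) FPKM in WT slices (-0.76 ± 0.17, adjusted p = 0.00014). Socs3 had 8.45 to 22.1 (median 11.1) FPKM in KO and 13.5 to 23.5 (median 16.1) FPKM in WT slices (-0.49 ± 0.08, and -0.11 after rescaling). Stat3 had 18.3 to 36.4 (median 22.1) FPKM in KO and 25.8 to 40.3 (median 28.8) FPKM in WT slices (-0.36 ± 0.06, and 0.03 after rescaling). These too passed the p and not the size, and Socs3 and Stat3 stood only -0.15 and -0.02 from the median gene. Of all 14566 genes, 10826 had an unadjusted p below 0.05, so a low p was common here.
Markers of other cells moved with genotype in the same slices. All 10 macrophage markers tested were called lower in KO, and the 11 of the list summed to 73.2 to 520.1 FPKM (median 180.1) in KO and 213 to 5694 FPKM (median 1059) in WT slices. Col3a1, Col1a1, Col1a2 and Lum, 4 of 8 fibroblast markers, were called lower, and the list summed to 13.5 to 1281 FPKM (median 43) in KO and 98.4 to 550.2 FPKM (median 183) in WT slices. Hepatocyte markers summed to 1919 to 76431 FPKM (median 9108) in KO and 1247 to 25708 FPKM (median 8947) in WT slices, with Ttr called higher and Hnf4a lower of 8. Neutrophil markers, another source of Lcn2 and Il1rn, summed to 1.97 to 7.07 FPKM (median 3.76) in KO and 1.74 to 37.6 FPKM (median 6.5) in WT slices. The part of these cells in the differences of Saa3, Lcn2 and Il1rn was not tested, and in bulk RNA fewer cells of a type and less RNA per cell cannot be told apart.

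**Figure D3:**
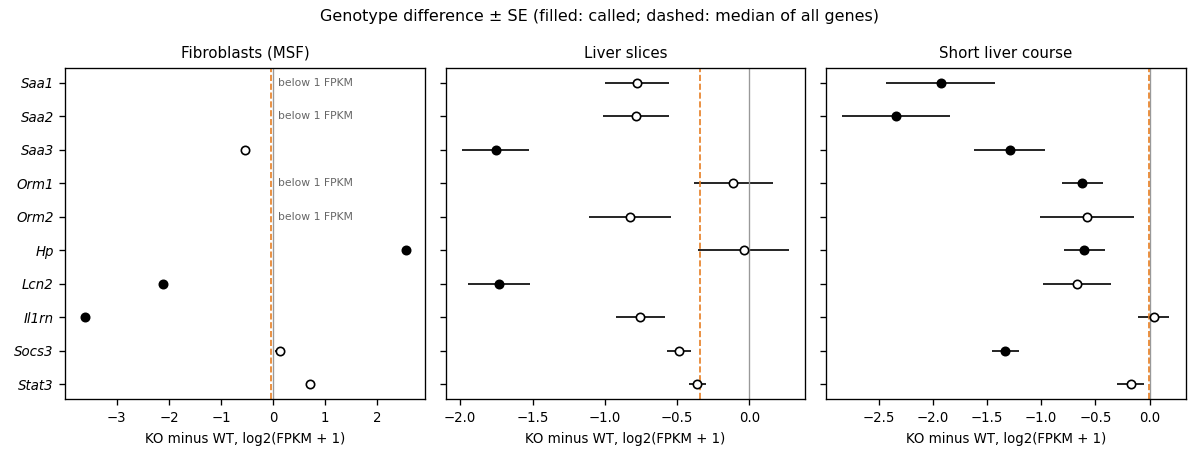
Difference of KO minus WT in log2(FPKM + 1), with its SE, for each acute phase gene in MSF, liver slices and the short course, filled where called and with the median of all genes as a dashed line; the horizontal ranges differ between panels. Hp lies to the right and Il1rn to the left in MSF, Saa3 and Lcn2 lie left of the other members in the slices, and Saa2 and Saa1 lie farthest left in the short course.

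The slices stayed in culture for the 3 days of harvest, and Saa1 and Saa2 fell over that time in both genotypes. In KO slices Saa1 had 9.09 to 56.2 (median 27.8) FPKM on day 3 and 45.7 to 292 (median 111) FPKM on day 1 (-2.11 ± 0.34, adjusted p = 0.00368). In WT slices it had 6.28 to 88 (median 38.3) FPKM on day 3 and 123 to 557 (median 288) FPKM on day 1 (-2.94 ± 0.47, adjusted p = 0.000502). Both were lower at 8 of 8 matched times. Saa2 followed with differences of -2.12 ± 0.33 in KO and -3.66 ± 0.48 in WT slices (adjusted p = 0.00368 and 0.00016).
Saa3 and Orm2 were called in KO slices. Saa3 had 27.2 to 123 (median 48.3) FPKM on day 3 and 73.4 to 767 (median 209) FPKM on day 1 in KO (-1.81 ± 0.39, adjusted p = 0.0186), against 82.2 to 915 (median 361) and 281 to 860.5 (median 534) FPKM in WT slices (-0.68 ± 0.41, adjusted p = 0.258). Orm2 differed by -1.30 ± 0.31 in KO (adjusted p = 0.0269) and -0.63 ± 0.62 in WT slices, and its KO call was lost without any 1 of CT00, CT12, CT51, CT57 or CT63. That made 4 of 10 members called in KO slices, against 0.387% of all genes, and 2 of 10 in WT slices, against 2.41%. Saa1 and Saa2 are in both counts and are not separate evidence. Leaving out 1 time point gave 3 to 5 members in KO and 2 to 3 in WT slices.
Orm1 missed the threshold in both genotypes (-1.41 ± 0.40 in KO and -1.27 ± 0.51 in WT slices, adjusted p = 0.0594 and 0.0883). Hp (-1.42 ± 0.52 and -0.30 ± 0.51 in KO and WT), Lcn2 (-0.79 ± 0.35 and 0.32 ± 0.38), Socs3 (0.03 ± 0.17 and -0.25 ± 0.09), Stat3 (0.13 ± 0.12 and 0.02 ± 0.07) and Il1rn (0.21 ± 0.27 and 0.52 ± 0.28) did not pass it either. The day change was not called different between the genotypes for any member. The size of that difference was 0.83 ± 0.59 for Saa1, 1.54 ± 0.60 for Saa2 and -1.12 ± 0.59 for Saa3 (adjusted p = 0.676, 0.346 and 0.499), and 0.0412% of all genes, 6 of 14566, were called, against 1539 at an unadjusted p below 0.05. Over the same days 9 of 10 macrophage markers tested were called higher in WT slices and 0 of 9 in KO slices, against 1.06% and 0.105% of all genes. Of 8 hepatocyte markers, Ttr, Apob and Serpina1a were called lower in WT slices and 0 in KO slices, where their median difference was -1.10.

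**Figure D4:**
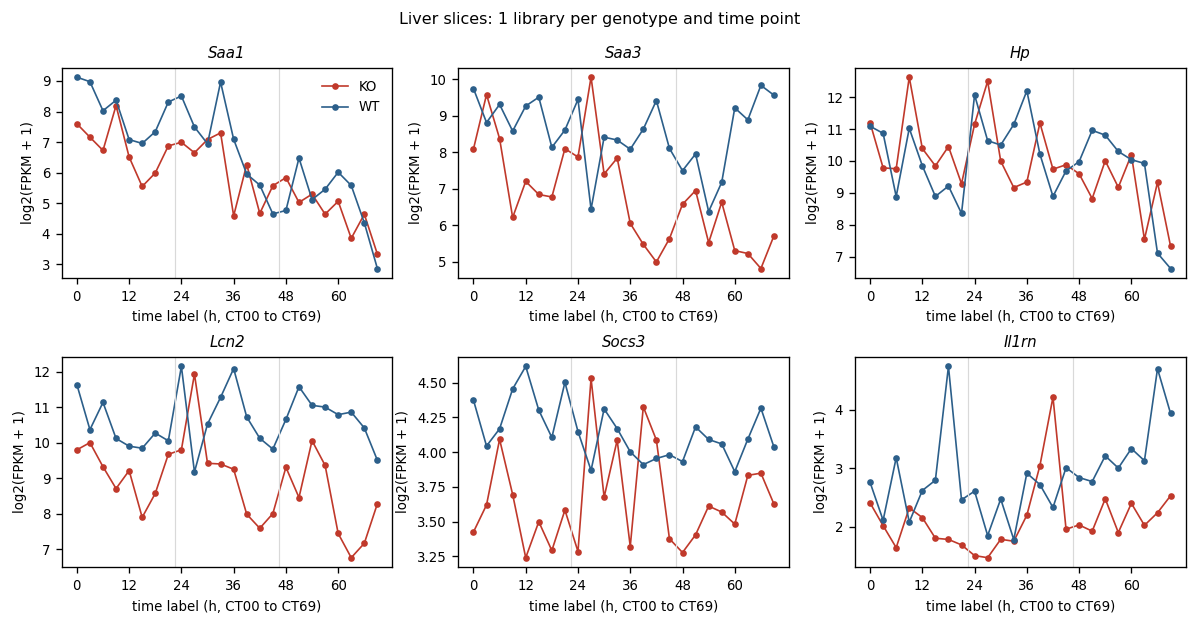
Level as log2(FPKM + 1) of Saa1, Saa3, Hp, Lcn2, Socs3 and Il1rn in liver slices against time from CT00 to CT69 in h, 1 point per library, KO and WT as separate lines. Saa1 declines over the 3 days in both genotypes, and Saa3 and Lcn2 in KO slices run below those of WT slices at 22 and 23 of the 24 time points.

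A 24 h rhythm was called for 2 members in KO slices and 0 of 10 in WT slices, where 11.2% and 1.98% of all genes were called. Saa3 had an amplitude (log2 units from the mean of the fitted cosine to its peak) of 1.00 ± 0.23 with a peak at 3.13 h in KO slices (adjusted p = 0.0246), and 0.75 ± 0.24 with a peak at 17.3 h in WT slices (adjusted p = 0.156). Lcn2 had an amplitude of 1.05 ± 0.21 in KO (adjusted p = 0.0152) and 0.34 ± 0.22 in WT slices (adjusted p = 0.65). The difference of the waves, tested itself, was called for Saa3 (1.68 ± 0.34, adjusted p = 0.014), the 1 member of 10 where 4.13% of all genes were called, and not for Lcn2 (0.82 ± 0.31, adjusted p = 0.196). The size of this difference counts a shift of the peak as well as a change of amplitude. Hp and Orm2 had the widest fitted waves in WT slices, 1.01 ± 0.33 and 0.92 ± 0.36 with peaks at 6.79 and 7.22 h, and neither passed the test (adjusted p = 0.156 and 0.269). None of the rhythm calls stood without day 2, without day 3, or without the 6 libraries least like the others (WT CT66 and CT69, KO CT09, CT27, CT39 and CT42). Without day 2, 0 of 14114 genes had a called rhythm in KO slices, and without day 3, 0 of 14198. The difference of the waves was then called for 1 and 0 genes. Leaving out a day therefore does not set the members apart from other genes. Both KO calls were lost without CT15, and the Saa3 difference without CT27. At CT27 WT slices had 85.9 FPKM of Saa3, and KO slices had 1069 FPKM, the highest KO value. Macrophage markers carried rhythm calls in the same libraries, 6 of 9 tested in KO and 7 of 10 in WT slices, with 8 of 10 called different between the genotypes. Their part in the Saa3 wave was not tested.

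The short liver course followed the members from T00 to T24 with 3 replicates per genotype. Il1rn, Socs3, Lcn2, Saa3, Stat3 and Saa2 changed over time in both KO and WT liver, 6 of 10 members, where 72.2% of all genes were called in KO and 64.4% in WT. That background means that a call over time is common here, and the sizes say more than the count. Lcn2 had 12.5, 10.1 and 27.9 FPKM at T00 in KO and 611, 1274 and 798 FPKM at T06, and in WT 83.6, 7.8 and 5.78 FPKM at T00 and 870.3, 1064 and 749 FPKM at T06. Lcn2 rose by 5.71 ± 0.63, 6.02 ± 0.63 and 5.45 ± 0.63 at T06, T12 and T24 in KO and by 5.69 ± 0.63, 6.90 ± 0.63 and 6.96 ± 0.63 in WT (SE, adjusted p of at most 1.38e-06). It was the largest rise of the members at each time.
Il1rn and Socs3 were highest at T06. Il1rn had 0.518, 0.84 and 0.585 FPKM at T00, 33.3, 45.8 and 30.4 at T06 and 9.31, 22.1 and 10.6 at T24 in KO. In WT it had 1.54, 0.728 and 0.703 FPKM at T00, 31.5, 27.7 and 25.2 at T06 and 16.2, 10.4 and 10.8 at T24. The rises at T06 were 4.49 ± 0.29 in KO and 3.89 ± 0.29 in WT liver. Socs3 had 6.33, 3.32 and 4.65 FPKM at T00, 35.1, 35.3 and 48.8 at T06, 15.3, 16.5 and 21 at T12 and 7.32, 4.5 and 4.2 at T24 in KO. In WT it had 10.2, 6.3 and 8.47 FPKM at T00, 65.2, 92.7 and 114 at T06, 39.9, 43.3 and 34.5 at T12 and 41.3, 26.1 and 26.1 at T24. At T24 the KO values did not differ from T00 by the test (0.14 ± 0.25, adjusted p = 0.65), and WT values stayed above it (1.78 ± 0.25, adjusted p = 8.74e-06). The test of the difference itself, genotype by time, missed the threshold for Socs3 over all genes (adjusted p = 0.0631), and so for every member, where 1.75% of all genes were called. Socs3 was called with the replicate number as a block or without KO replicate 1 (-1.64 and -1.66), and Lcn2 without WT replicate 1 at T00 (-2.66).
Stat3, the activator that SOCS3 restrains, rose at T06 by 0.97 ± 0.25 in KO and 1.37 ± 0.25 in WT liver. It then stayed called in WT at T24 (0.96 ± 0.25) and not in KO (-0.31 ± 0.25, adjusted p = 0.275). Saa3 had 6.08, 4.14 and 3.96 FPKM at T00 and 56.3, 122 and 63.4 at T06 in KO, a rise of 3.76 ± 0.65. In WT it had 105, 15.5 and 12.1 FPKM at T00 and 92.2, 109 and 31.6 at T06, which did not pass the test (1.29 ± 0.65, adjusted p = 0.11), and 302, 939.9 and 347 at T24, which did (4.03 ± 0.65). WT replicate 1 at T00 stood apart from the other 2, with 2806 FPKM of Saa1, 105 of Saa3 and 83.6 of Lcn2. Without it the WT rise of Saa3 at T06 was called (2.23 ± 0.55), and Saa1 was called over time in WT (a largest step of 4.12, against 2.53 and adjusted p = 0.119 with it) and in KO (2.31, adjusted p = 0.0245). The largest WT steps of Saa2 and Lcn2 were then 5.03 and 8.11, against 3.22 and 6.96 with that library. The number of members called over time ran from 5 to 7 in each genotype when a replicate or library was left out. The time course of Saa3 was not called different between the genotypes (adjusted p = 0.274). Saa2 lost its call over time in KO without any KO replicate, WT replicate 2 or KO replicate 2 at T24, and in WT without KO replicate 1 or 3 or WT replicate 2 or 3. Orm1, Orm2 and Hp were not called over all times. At T24 in KO, Orm1 and Hp fell by 1.05 ± 0.37 and 1.04 ± 0.39 on the log2 scale against T00 (adjusted p = 0.0185 and 0.0227). Without KO replicate 2 at T24, which had 211 FPKM of Orm1 and 337 FPKM of Hp, the changes were -0.53 ± 0.33 and -0.47 ± 0.32 and neither was called (adjusted p = 0.162 and 0.203). Against T00, 6, 4 and 5 members were called at T06, T12 and T24 in KO, where 44%, 55.3% and 67.6% of all genes were called. In WT 5, 7 and 6 members were called, where 46.6%, 50.5% and 61.2% of all genes were. All of these were higher than at T00, except Orm1 and Hp at T24 in KO.

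**Figure D5:**
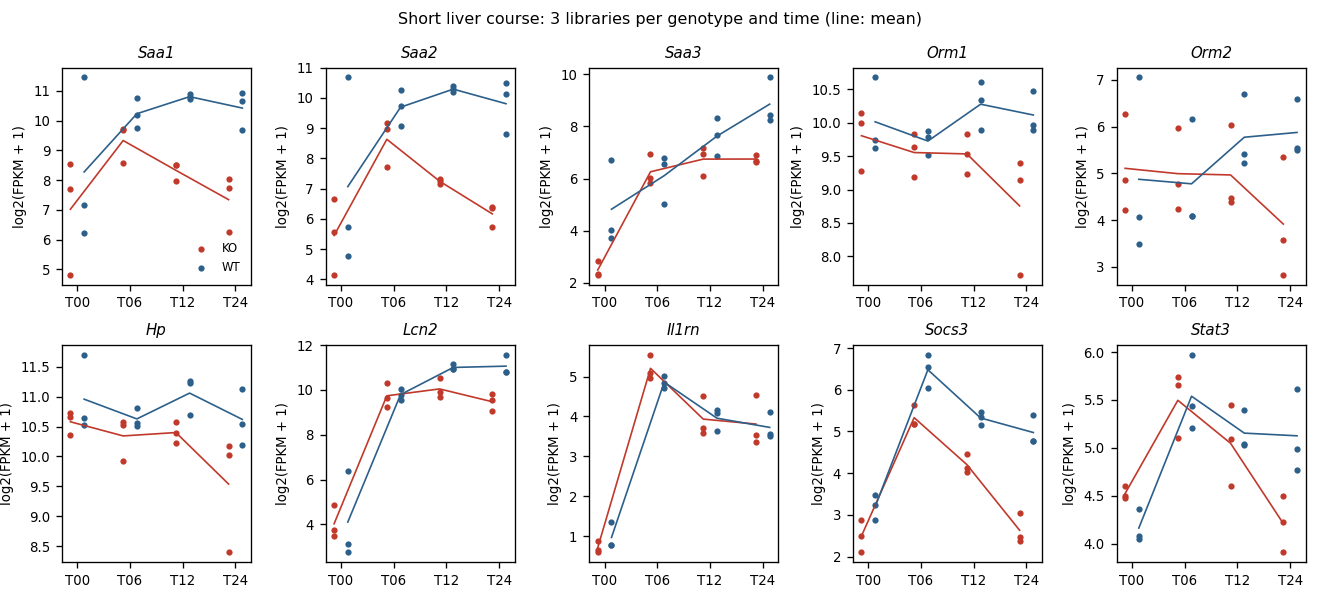
Level of the 10 acute phase genes in the short liver course as log2(FPKM + 1) at T00, T06, T12 and T24, 1 point per library and a line through the group means, KO left of WT at each time. Lcn2 and Il1rn climb between T00 and T06 in both genotypes, Socs3 peaks at T06, and at T24 all 3 KO libraries lie below all 3 WT libraries for 9 of the 10 genes, as for 36.1% of all genes in either direction.

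Between the genotypes, Socs3 was lower in KO liver at each of T06, T12 and T24, and the serum amyloid genes were lower at T24. Averaged over the 4 times, Socs3 differed by -1.33 ± 0.13 (SE, adjusted p = 6.04e-07), Saa2 by -2.34 ± 0.50 (adjusted p = 0.00265), Saa1 by -1.93 ± 0.50 (adjusted p = 0.0115) and Saa3 by -1.29 ± 0.32 (adjusted p = 0.00914). Orm1 and Hp differed by -0.62 ± 0.19 and -0.60 ± 0.19 (adjusted p = 0.0261 and 0.0361). These were 6 of 10 members, all lower in KO, where 18.7% of all 12547 genes were called, 11% lower and 7.75% higher. Lcn2 (-0.67 ± 0.32), Orm2 (-0.58 ± 0.44), Stat3 (-0.18 ± 0.12) and Il1rn (0.04 ± 0.14) did not pass the test. Without KO replicate 2 the count was 3: Saa1, Orm1 and Hp lost their call. Orm1 also lost it without WT replicate 1 or 3, Hp without KO replicate 1 or WT replicate 1 or 3, and Saa3 without KO replicate 3. Socs3 and Saa2 kept theirs without any 1 replicate.
By time, the calls began with Socs3 and Saa3. At T00 Saa3 was lower in KO (-2.33 ± 0.65, adjusted p = 0.0471), the 1 member called where 4.45% of all genes were, and it lost its call without any 1 replicate except WT replicate 3, and without WT replicate 1 at T00 alone (-1.38). Saa1 and Saa2 changed sign there without that library, to 0.33 and 0.19 from -1.25 ± 1.00 and -1.62 ± 0.99. At T06 and at T12 Socs3 was the 1 member called, -1.15 ± 0.25 and -1.12 ± 0.25 (adjusted p = 0.0214 and 0.0226), where 1.67% and 2.4% of all genes were. All 3 KO values lay below all 3 WT values at both times, where 17.1% and 14.1% of all genes had groups that did not overlap. Those 2 calls were lost without any 1 of the KO replicates or of WT replicates 2 and 3.
At T24 the number of members called was 6 of 10, all lower in KO, where 17.9% of all genes were called, 10.4% lower and 7.5% higher. Socs3 differed most clearly (-2.34 ± 0.25, adjusted p = 2.27e-05). Saa1 had 215, 74.8 and 262 FPKM in KO against 1935, 1637 and 819.6 FPKM in WT liver (-3.08 ± 1.00, adjusted p = 0.0403). Saa2 had 84, 52.6 and 80.3 FPKM in KO against 1451, 1117 and 444 FPKM in WT liver (-3.64 ± 0.99, adjusted p = 0.0176). Both are the plasma forms of serum amyloid A, and neither pair of groups overlapped. Saa3 had 119.6, 102 and 99.4 FPKM in KO against 302, 939.9 and 347 FPKM in WT liver (-2.10 ± 0.65, adjusted p = 0.0317). Orm1 had 566, 211 and 671 FPKM in KO against 1422, 949.5 and 1002 FPKM in WT liver (-1.36 ± 0.37, adjusted p = 0.0185). Stat3 had 21.6, 14.1 and 17.7 FPKM in KO against 30.8, 48 and 26.3 FPKM in WT liver (-0.91 ± 0.25, adjusted p = 0.0175). The groups did not overlap for these either.
Hp, Lcn2 and Orm2 were lower in all 3 KO libraries too and missed the threshold. Hp had 1045, 337 and 1160.0 FPKM in KO against 2237, 1166 and 1487 FPKM in WT liver (-1.08 ± 0.39, adjusted p = 0.0588). Lcn2 had 739.5, 912 and 530.2 FPKM in KO against 3051, 1768 and 1811 FPKM in WT liver (-1.59 ± 0.63, adjusted p = 0.0889). Orm2 had 10.9, 6.12 and 39.6 FPKM in KO against 94.9, 45.5 and 44.1 FPKM in WT liver (-1.96 ± 0.87, adjusted p = 0.126). Il1rn was the 1 member whose groups overlapped. Of all genes 36.1% had groups that did not overlap at T24, 20.3% with all KO libraries lower, so separation was common. Il1rn did not pass the test (0.08 ± 0.29, adjusted p = 0.878). KO replicate 2 at T24 was the library least like the others, and without it 1 member, Socs3, was called at T24. The differences were then -2.53 for Saa1, -3.43 for Saa2, -2.07 for Saa3, -0.84 for Orm1, -0.77 for Stat3 and -0.51 for Hp (adjusted p = 0.335 for Hp), in a test with 2 KO libraries. With 1 replicate left out at all times, Saa1 lost its T24 call in each of the 6 cases, Saa2 without KO replicate 2 or 3 or WT replicate 2, Saa3 without any KO replicate or WT replicate 2, Orm1 without KO replicate 2 or WT replicate 1 or 3, and Stat3 without KO replicate 2 or 3 or WT replicate 1 or 2. Socs3 kept its T24 call in all 6. Without WT replicate 1 at T00, 8 members were called at T24, with Hp and Lcn2 added. Their differences stayed at -1.08 and -1.59, and their SE fell to 0.353 and 0.348. The share of all genes called without that library is not given here, so the higher count is no result about the members. Macrophage markers were lower in KO liver for Cd163, C1qa, Cd68 and C1qc at T24, 4 of 11, and over the 24 libraries the list summed to 130.2 to 345 FPKM (median 190.4) in KO and 155 to 429 FPKM (median 255) in WT liver. Neutrophil markers summed to 2.55 to 33.1 FPKM (median 5.17) in KO and 3.77 to 74.6 FPKM (median 10.4) in WT, and hepatocyte markers to 5692 to 24535 FPKM (median 14195) in KO and 5676 to 34280.4 FPKM (median 18184) in WT liver, Alb included as listed. Their part in these differences was not tested.

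Other acute phase genes, from a list of 24 positive ones, were called in both directions between the genotypes. Of all genes, 16% were called in MSF, 6.21% higher and 9.82% lower in KO. In MSF 9 were above the filter and 6 were called, 5 of them higher in KO, with a median difference of 1.08 over the 9, against -0.04 over all genes. Lbp, which binds bacterial lipopolysaccharide, had 274 to 555 (median 405) FPKM in KO and 12 to 23.1 (median 18.5) FPKM in WT MSF (4.44 ± 0.04, adjusted p = 8.51e-50). The complement component C3 (2.48 ± 0.03) and ceruloplasmin, Cp (1.58 ± 0.03), were higher too, and Steap4, a metalloreductase, was lower (-3.32 ± 0.05). The remaining 2 were Mt1 and Cd14, both higher.
In the slices 7 of 24 were called, 5 higher and 2 lower in KO, with a median of -0.09 where all genes had -0.34. Of all genes 5.23% were called, 1.18% higher and 4.05% lower. Cd14, a co-receptor for lipopolysaccharide, and Steap4 were lower. Cd14 had 19.2 to 73.6 (median 49.2) FPKM in KO and 64.3 to 182 (median 93.2) FPKM in WT slices, and Steap4 differed by -1.65 ± 0.25. C-reactive protein, Crp (1.35 ± 0.25), and the iron hormone hepcidin, Hamp (1.31 ± 0.26), were higher, with Serpina3k, Itih4 and C3. In the short course 8 of 24 were called over all times, 3 higher and 5 lower in KO, and 8 at T24, 2 higher and 6 lower. Of all genes 18.7% were called over all times and 17.9% at T24. Saa4, the constitutive serum amyloid A of plasma, was lower by 2.02 ± 0.20 on average, and at T24 Saa4 and Orm3, another orosomucoid, differed by -2.75 ± 0.40 and -2.76 ± 0.52. Crp was higher at T24 (1.42 ± 0.32). Cd14 rose by 5.39 ± 0.32 at T06 in KO and 5.04 ± 0.32 in WT liver. The metallothionein Mt2 rose by 5.33 ± 0.45 at T06 in KO and 7.21 ± 0.45 in WT liver.
The negative acute phase list holds 8 plasma proteins that fall in the response. In MSF 3 were above the filter and all 3 were called higher in KO: Trf, transferrin (6.62 ± 0.04), Rbp4, the retinol carrier (2.71 ± 0.05), and Ahsg, fetuin A (1.67 ± 0.03). Trf had 90.9 to 118 (median 106) FPKM in KO MSF and at most 0.532 FPKM in WT MSF. In the slices Serpinc1 and Ttr were called higher (1.72 ± 0.25 and 1.08 ± 0.24), 2 of 8. In the short course Trf, Rbp4 and Apoa1 were called lower and Serpinc1 higher in KO, and at T24 Rbp4 lower, 1 of 8. The shares of all genes called between genotypes were 16% in MSF, 5.23% in slices, 18.7% over all times and 17.9% at T24. Over time Ttr, the thyroxine carrier, was lower at T24 than at T00 by 2.03 ± 0.30 in KO and 1.79 ± 0.30 in WT liver, with 7 of 8 called lower in each, where 35.8% of all genes were called lower in KO and 31.5% in WT. In WT the remaining gene, Alb, was called higher at T24. It was listed at 0 in every WT library at T00, which may be a failed estimate.

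Most cytokine ligands of the response were higher at T06 than at T00 in the short course. Of 8 ligands tested 6 were called higher and 1, Ctf1, lower than T00 at T06 in KO, and 6 higher and 0 lower in WT liver. Of all genes 20.6% were called higher and 23.3% lower in KO, and 23% higher and 23.6% lower in WT. Il6, the main inducer of the hepatic response, had 0.0313 to 0.133 (median 0.0724) FPKM at T00 and 3.53 to 156 (median 14.3) FPKM at T12 in KO, a rise of 4.36 ± 0.82. In WT it had 0 to 0.356 (median 0.125) FPKM at T00 and 12.5 to 37.9 (median 19.5) FPKM at T12, a rise of 4.26 ± 0.82. Lif, another ligand that signals through gp130, rose by 2.90 ± 0.45 at T06 in KO and 2.72 ± 0.45 in WT liver. Between genotypes Il1b was called lower (-0.55 ± 0.16) and Ctf1 higher (0.50 ± 0.14) in KO over all times, 2 of 8, and 0 of 8 at T24, where 18.7% and 17.9% of all genes were called. No ligand was called between genotypes in MSF (0 of 3 tested) or slices (0 of 6), where 16% and 5.23% of all genes were called. Over the slice days Il6 fell in both, by 1.43 ± 0.22 in KO and 1.54 ± 0.27 in WT slices, the 1 ligand called in each, where 0.387% and 2.41% of all genes were called.
Of 10 receptors, the gp130 gene Il6st and the interleukin 1 decoy receptor Il1r2 were called lower in KO MSF (-1.52 ± 0.03 and -1.08 ± 0.05), Tnfrsf1b, a tumour necrosis factor receptor, in KO slices, and Lifr, Il1r2 and Il6ra in KO liver of the short course. Lifr, the LIF receptor, differed in the short course by -0.83 ± 0.13 on average and by -1.33 ± 0.26 at T24, the 1 receptor called there. Of all genes 16% were called between genotypes in MSF, 5.23% in slices, 18.7% over the short course and 17.9% at T24. Osmr, the oncostatin M receptor, rose by 2.36 ± 0.27 at T06 in KO and 2.46 ± 0.27 in WT liver.
Of 22 genes of JAK, STAT and NF-kB signalling, 19 were called at T06 in KO liver, 16 higher and 3 lower, and 17 in WT liver, 15 higher and 2 lower, where 44% of all genes were called in KO (20.6% higher) and 46.6% in WT (23% higher). Tnfaip3 and Nfkbia, which restrain NF-kB, rose by 4.27 ± 0.22 and 3.86 ± 0.18 in KO and by 4.22 ± 0.22 and 3.32 ± 0.18 in WT liver. Between genotypes 9 were called over all times, 1 higher and 8 lower in KO, with a median of -0.13 where all genes had -0.01. Of all genes 18.7% were called, 7.75% higher and 11% lower. The transcription factor Cebpb, C/EBP beta, had 34.7 to 138 (median 98.4) FPKM in KO and 64.2 to 236 (median 189) FPKM in WT liver (-0.89 ± 0.09, adjusted p = 1.37e-06). Nfkbia (-0.58 ± 0.09), Cebpa (-0.63 ± 0.10) and Cebpd (-0.65 ± 0.12) were lower too. At T24 9 were called, 2 higher and 7 lower, where 17.9% of all genes were called, 7.5% higher and 10.4% lower. In the slices 1 of 22 was called, Bcl3, lower in KO (-1.16 ± 0.08), and in MSF 1, Cebpa, lower in KO (-1.10 ± 0.03). Of all genes 5.23% were called in slices and 16% in MSF.
Of 8 genes of the glucocorticoid response, which bears on cells treated with dexamethasone, 0 were called between genotypes in MSF (7 tested) and slices. Of all genes 16% and 5.23% were called there, and 18.7% over all times of the short course. In the short course 4 were called over all times, with Per1 (-1.01 ± 0.07), Fkbp5 (-0.49 ± 0.09) and Nr3c1 (-0.23 ± 0.08) lower and Tsc22d3 (0.51 ± 0.11) higher in KO. Per1 is also a clock gene. Of the remaining marker lists, endothelial Kdr was called lower in KO in MSF and in the short course (1 of 2 and 1 of 5 tested) and 0 of 5 in slices, biliary Krt19 was higher and Spp1 lower in MSF and Spp1 lower in slices, with 0 of 5 over the short course and Epcam higher at T24. Of the neutrophil list 0 of 1 was called in slices, 0 of 2 in the short course, and none was above the filter in MSF.

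The genes most like 4 of the members over the 48 slice libraries were ranked by Pearson's r of log2(FPKM + 1) after the genotype means were taken out, among 8389 genes. All genes of a library share its depth and the make-up of its slices, which may differ between libraries, so r describes likeness only. Saa2 was the gene most like Saa1 (r = 0.98), and the 2 share reads, followed by Slpi, a protease inhibitor (0.87), H2-Q7 (0.85), H2-K1 (0.83) and Prodh (0.82). Orm1 ranked 20th with 0.80, and Saa3 1954th with 0.37. The genes most like Saa3 were the chemokines Ccl7 (0.78) and Ccl2 (0.77), then Spsb1 (0.74), Mcrip1 (0.72) and Pkig (0.72), and Lcn2 stood at 0.57. Lcn2 was most like Palmd and Cldn2 (0.85 each), Sfxn1 (0.83), Nrbp2 (0.81) and Phyhd1 (0.81). Socs3 was most like Nbl1 (0.64), Myd88 (0.61), Bok (0.61), Pdxk (0.60) and Plac8 (0.59), and its activator Stat3 ranked 14th with 0.57. Without the 6 least alike libraries these values were 0.98 for Saa2 with Saa1, 0.75 for Ccl7 with Saa3, 0.81 for Palmd with Lcn2 and 0.63 for Nbl1 with Socs3, and r of Saa3 with Saa1 was 0.60. The ratio of Saa2 to Saa1 ran from 0.326 to 0.66 (median 0.542) in KO and from 0.185 to 0.934 (median 0.559) in WT slices. In the short course it ran from 0.224 to 0.703 (median 0.483) in KO and from 0.361 to 0.75 (median 0.672) in WT liver.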

How the data were processed

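The labels give 72 sequencing runs per genotype in the MSF and slice courses, and 3 replicates per genotype and time in the short course. The deposited values are FPKM that the authors computed per gene, with TopHat2 2.1.0, Cuffdiff and GRCm38 named in the submitters' processing notes. How libraries were scaled and which annotation was counted is not given in the sources used here. No counts were used, so depth, and the precision it gives, are unknown. In MSF 118 genes with a value not marked OK were left out, and 0 FPKM columns went unused.

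Libraries were grouped by their labels. From log2(FPKM + 1), genes averaging 1 FPKM or more were fitted with limma 3.58.1 (data.table package version 1.17.8, statmod 1.5.0, R 4.3.3). In the long courses, genotype means were compared with a 24 h cosine and sine and a linear trend per genotype in the fit, day 3 was compared with day 1 with the cosine and sine in the fit, and a rhythm was an F test of cosine and sine beside the trend. The short course had 1 fit with a mean per genotype and time. P-values were adjusted over all genes of a fit by Benjamini and Hochberg. Scripts were tested on simulated data. Python 3.11.15 with numpy 2.4.6, pandas 2.3.3, scipy 1.17.1 and matplotlib 3.10.9 made the summaries and figures. The members and the 13 gene lists were chosen with earlier results of these data known. Named were all members, up to 4 called genes per list and comparison by smallest adjusted p, and the 5 genes most like each of Saa1, Saa3, Lcn2 and Socs3 among genes averaging 5 FPKM or more. A few other called genes that complete a count, and Mt2 over time, were named after their values were seen. Alternatives were a pseudocount of 0.1, no filter, rescaling by the median of ratios, no size limit, the replicate number as a block, the time point as a block, the day as a factor or no trend, and leaving out replicates, days, time points and single libraries.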

Additional observations from a re-analysis of the deposited data

Results flagged for a closer look

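Saa3 in WT MSF on day 3 had its lowest value at CT63, 106 FPKM, where the other 7 libraries lay at 117 to 126 FPKM. Saa3 in WT slices on day 2 had its lowest value at CT27, 85.9 FPKM, where the others lay at 271 to 699 FPKM. Stat3 in KO slices on day 3 had its highest value at CT66, 36.4 FPKM, where the others lay at 19.7 to 23.8 FPKM. Il1rn in WT slices on day 1 had its highest value at CT18, 25.8 FPKM, where the others lay at 3.22 to 8.06 FPKM. The gap to the nearest library and the whole range were taken on the scale of log2(FPKM + 1), not on the FPKM printed here. In each case the gap was a larger share of the range than Dixon's 95% critical value for 8 libraries, 0.526. These were 4 of 96 groups examined, and chance alone picks about 1 in 20.

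The 24 h wave of Saa3 differed between KO and WT slices by 1.68 on the log2 scale, by a test of the difference itself. That size counts a shift of the peak as well as a change of amplitude. The fitted amplitudes were 1.00 in KO and 0.75 in WT slices. The call was lost without CT27, without day 2, without day 3, and without the slice libraries least like the others. Without day 2 and without day 3, 1 and 0 of all genes were called.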

How the results depend on the processing

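Depth is not known, so how far it limits low values such as Il1rn in KO MSF cannot be given. Leaving out time points, the 6 least alike slice libraries, WT replicate 1 at T00 or KO replicate 2 at T24 was chosen after seeing the data. Of 2944 values with 1 time point, replicate or library left out, 2803 kept direction and call, 69 lost a call, 16 gained one and 56 changed sign. Of 988 values under other alternatives these numbers were 931, 20, 26 and 11. Tests of rhythm and of time over several terms have no single direction and were compared by call alone, so a step that changed sign there is not counted as a change of sign. No called difference between genotypes or days changed sign. The cause of a change was not tested.

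Numbers of members called are given first. With no size limit they were 5 for KO against WT in MSF, 1 and 6 for day 3 against day 1 in KO and WT MSF, and 8 for KO against WT in slices. Of all genes, 81.2% were then called for KO against WT in MSF, and 25.1% and 30.3% for the day in KO and WT MSF. These counts without a size limit therefore say little about the members. In slices 10826 of 14566 genes had an unadjusted p below 0.05 for KO against WT. A pseudocount of 0.1 gave 2 for the day in WT MSF, where 0.832% of all genes were called. Without the 6 slice libraries there were 4 for KO against WT and 0 for the rhythm in KO and its difference. The share of all genes called without these libraries is not given here, so these counts are no result about the members. The KO slice rhythm gave 1 with no filter, 1 without day 1, 0 without day 2, 0 without day 3 and 4 with the day as a factor. Of all genes, 2.27%, 19.3%, 0%, 0% and 16.8% were called in these settings. With the day as a factor the WT rhythm gave 2, where 13.2% of all genes were called. The rhythm difference gave 0 without day 2 and 0 without day 3, where 0.00688% and 0% of all genes were called. At T00 there were 0 with no filter, 0 without WT replicate 1 at T00 and 0 without KO replicate 2 at T24. Without WT replicate 1 at T00 there were 2 at T12 and 1 for the time course difference, and without KO replicate 2 at T24 there was 1 at T24. Shares of all genes called without these single libraries are not given here either. Leaving out 1 time point or replicate gave 0 to 2 for the KO and 0 to 1 for the WT slice rhythm, 0 to 1 for its difference, 3 to 6 for KO against WT in the short course, 0 to 1 at T00, 0 to 1 at T06, 0 to 2 at T12, 1 to 8 at T24 and 0 to 1 for the time course difference.

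Signs changed for Socs3 in MSF without day 3 (-0.11). In slices they changed for Orm1 (0.29 rescaled, 0.03 without day 2), Hp (0.36 rescaled, 0.09 without day 2, 0.17 without day 3) and Stat3 (0.03 rescaled). Without the 6 libraries the WT day change was 0.08 for Orm2, 0.36 for Hp and -0.08 for Stat3. In the short course Il1rn was -0.02 with a pseudocount of 0.1, and -0.05 overall and -0.28 at T24 without KO replicate 2 at T24. Without WT replicate 1 at T00, the T00 differences were 0.33 for Saa1, 0.19 for Saa2, 0.12 for Orm1 and 1.08 for Lcn2. With 1 time point left out, the day change ran from -0.01 to 0.05 for Stat3 in KO MSF, from -0.03 to 0.10 for Socs3 in KO slices, and from -0.61 to 0.01 for Hp and -0.04 to 0.04 for Stat3 in WT slices. Hp in slices ran from -0.15 to 0.09, and the day difference of Orm1 from -0.36 to 0.23. With 1 replicate left out, the short course gave -1.16 to 0.07 for Orm2 and -0.19 to 0.17 for Il1rn. At T00 it gave -2.28 to 0.33 for Saa1, -2.76 to 0.19 for Saa2, -0.40 to 0.12 for Orm1, -0.45 to 1.32 for Orm2 and -0.75 to 1.08 for Lcn2. At T06 it gave -0.40 to 0.48 for Saa3, -0.31 to 0.01 for Orm1, -0.27 to 0.91 for Orm2, -0.34 to 0.19 for Lcn2 and -0.21 to 0.17 for Stat3. It gave -0.30 to 0.11 for Stat3 and -0.31 to 0.15 for Il1rn at T12, and -0.28 to 0.31 for Il1rn at T24.

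Replicate numbers were not taken to pair the short-course libraries, since the labels tie them to no animal or batch. Deviations of libraries with the same genotype and number at different times correlated at -0.081 to 0.216 (median 0.036, n = 36). Of the members, though, Saa1, Saa2, Orm1, Orm2 and Hp were highest in WT replicate 1 at all 4 times, Orm2 in KO replicate 3 and Il1rn in KO replicate 2. With the replicate number as a block, 1 member, Socs3, was called for the time course difference, and Hp lost its call between genotypes, where 12.9% of all genes were called against 18.7% without the block.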
